A study of Mus musculus with 12 samples.

Results

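The genes described here encode the enzymes that release fatty acids from the triglyceride droplets inside fat cells, together with their regulators: Pnpla2, Lipe, Mgll, Abhd5, G0s2, Pnpla3, Pnpla8 and Aqp7. They were chosen by name, and every probe set that the platform's probe table assigns to 1 of them alone was taken. A probe set is a group of array probes that together report on 1 transcript region. All 8 genes were measured, by 17 probe sets, among 18193 genes in all, and no filter on low values was applied.

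RNA was prepared from whole brown adipose tissue, a fat that makes heat, from 12 male ob/ob mice aged 3 months and kept on normal chow. These mice carry a mutation in the leptin gene, lack working leptin and are obese, and both groups share this background. The anti-FGFR1 group of 6 mice received 1 intraperitoneal injection of an agonistic anti-FGFR1 antibody at 1 mg/kg, that is, one that switches this growth factor receptor on. The control IgG group of 6 mice received a control antibody, whose dose the labels do not give, and was pair-fed, that is, given food to match the intake of the treated mice. Tissue was taken on day 4, and each mouse was measured on its own one-colour Affymetrix array. The comparison asks which genes of brown fat respond to activation of FGFR1, and transcript levels are the only readout.

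Triglyceride is broken down in steps. Pnpla2, also called adipose triglyceride lipase, removes the first fatty acid, hormone-sensitive lipase (Lipe) the second, and monoglyceride lipase (Mgll) the last, which leaves glycerol. Abhd5 activates Pnpla2 and G0s2 inhibits it, while noradrenaline switches the pathway on in brown fat through cAMP and protein kinase A, largely by modifying proteins, and the fatty acids released fuel and activate heat production.

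Values are log2 expression, so a difference of 1 is a doubling. Genes were compared with limma, and a gene is called changed where the p-value adjusted over all genes by the Benjamini-Hochberg method is under 0.05. Errors of levels are SD over 6 mice, and errors of log2 fold changes are limma's moderated standard errors (SE). The main value of a gene comes from its brightest probe set, by the mean over all arrays.

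None of the 8 lipase genes passed the threshold. By limma, 0 of the 8 genes were called, where 8.03% of all genes were, and 4 of the 8 had an unadjusted p under 0.05, where 22.4% of all genes did. In 0 of the 8 did the groups not overlap, against 5.12% of all genes. Their median log2 fold change was -0.02, beside 0.01 over all genes, and their median absolute log2 fold change was 0.13, beside 0.07. The 3 lipases of the main chain differed least, and Pnpla3 differed most. Those 3 lipases are also very bright: 99.2% to 99.5% of all genes had a mean as low. Whether the array understates differences at such levels was not tested, so their small differences and narrow intervals hold for the measured signal.

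**Figure D1:**
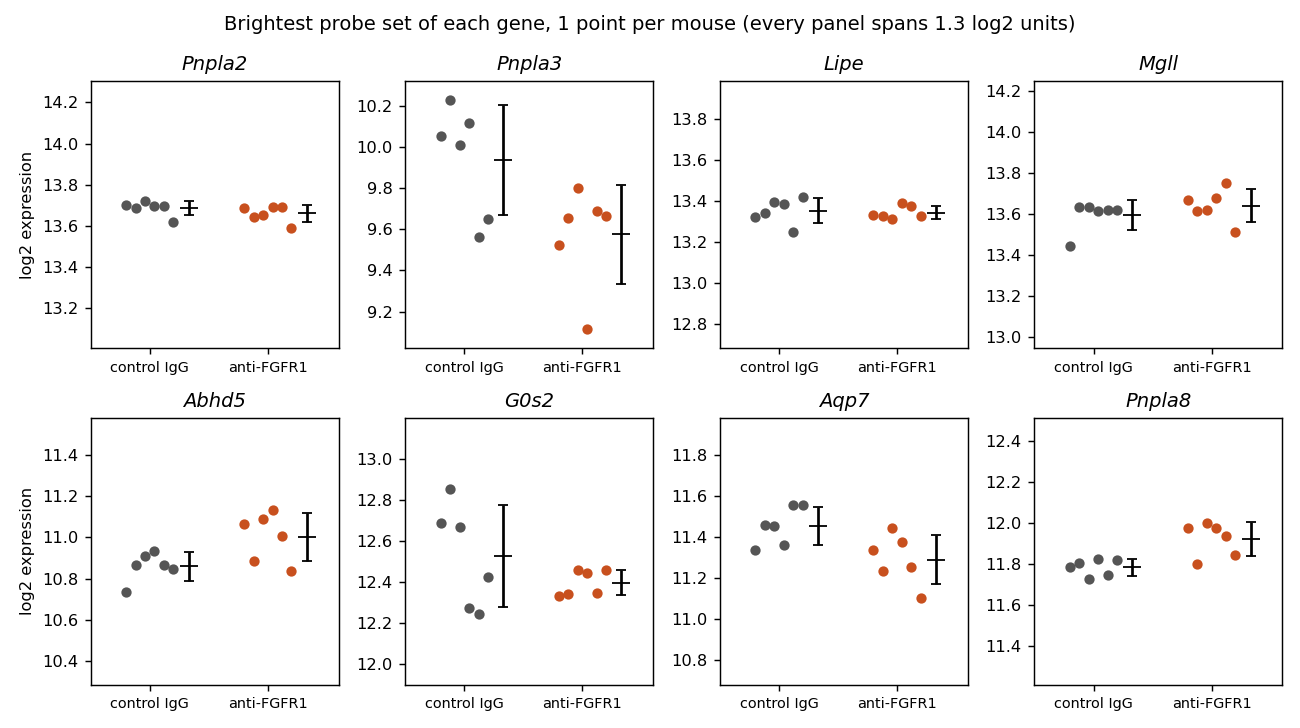
Log2 expression of the brightest probe set of each of the 8 genes, 1 point per mouse, for 6 control IgG and 6 anti-FGFR1 mice, with the mean and SD of each group beside the points and every panel spanning the same range. Pnpla2 and Lipe sit within narrow bands in both groups, Pnpla3 and G0s2 spread widely, and the groups overlap in all 8 panels.

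Pnpla2 catalyses the first and rate-limiting step. Control mice ranged from 13.62 to 13.72 (median 13.70) and anti-FGFR1 mice from 13.59 to 13.69 (median 13.67). The groups overlapped almost completely, and only 1 anti-FGFR1 mouse lay below all controls. The means were 13.69 ± 0.04 and 13.66 ± 0.04 (SD, n = 6 per group). The log2 difference was -0.03 ± 0.04 (SE), with a limma adjusted p of 0.729. The 95% interval of the ratio ran from 0.928 to 1.04 times the control level. Its pooled SD within groups was 0.038, and 0.687% of genes had one as small. The second, dimmer Pnpla2 probe set, at 8.78 in controls, differed by 0.05 ± 0.05 and did not pass either (limma adjusted p = 0.674 over all probe sets).

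Abhd5 encodes CGI-58, the protein that binds Pnpla2 and raises its activity. Its main probe set ranged from 10.73 to 10.93 in controls (median 10.87) and from 10.84 to 11.13 after anti-FGFR1 (median 11.04). Of the anti-FGFR1 mice, 4 lay above all controls, while replicates 2 and 6 fell inside the control range. The log2 fold change was 0.14 ± 0.06, an unadjusted limma p of 0.025 and an adjusted p of 0.150. A second bright Abhd5 probe set gave 0.18 ± 0.07, again with 4 of 6 mice above all controls (limma adjusted p = 0.178 over all probe sets). The third, near the dim end of the array at 6.37 in controls, gave 0.03 ± 0.10. After a second quantile normalization of the deposited values, Abhd5 passed at 0.17 ± 0.05 (limma adjusted p = 0.0381).

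G0s2 is the inhibitor of Pnpla2, itself induced by insulin and by the nuclear receptor PPARγ in fat cells. Control mice spread from 12.25 to 12.85 (median 12.55), whereas anti-FGFR1 mice lay between 12.33 and 12.46 (median 12.40). All 6 anti-FGFR1 values fell inside the control range, with 3 controls above them at 12.67 to 12.85 and 2 below. The SD was 0.25 in controls and 0.06 after anti-FGFR1, and this difference in spread was not tested. The log2 fold change was -0.13 ± 0.09 (limma adjusted p = 0.449), and -0.06 ± 0.08 without control replicate 2.

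Lipe removes the second fatty acid and is activated in fat by protein kinase A. It ranged from 13.25 to 13.42 in controls (median 13.36) and from 13.31 to 13.39 after anti-FGFR1 (median 13.33), so that every anti-FGFR1 value lay within the control range. The log2 fold change was -0.01 ± 0.04 (limma adjusted p = 0.934), and the 95% interval of the ratio ran from 0.936 to 1.06. Only 2.46% of genes had a pooled SD as small as that of Lipe, at 0.048. Its second probe set was dim, at 5.41 in controls, and differed by -0.05 ± 0.08.

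Mgll releases the last fatty acid and is also the main enzyme that degrades the signalling lipid 2-arachidonoylglycerol. Its brightest probe set ranged from 13.45 to 13.64 in controls (median 13.62) and from 13.51 to 13.75 after anti-FGFR1 (median 13.65). Control replicate 1 and anti-FGFR1 replicate 6 were the lowest of their groups, and 3 anti-FGFR1 mice lay above all controls. The log2 fold change was 0.04 ± 0.05 (limma adjusted p = 0.645), and 2 other bright Mgll probe sets gave 0.04 ± 0.06 and 0.07 ± 0.05. Without control replicate 1 the brightest stood at 0.02 ± 0.05, and without anti-FGFR1 replicate 6 at 0.07 ± 0.05. The brightest carries the suffix _s_at, which marks probes shared by several transcripts, and the 2 other bright ones do not.

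The fourth and dimmest Mgll probe set was the only 1 of the 17 that passed, where 5.32% of all 45037 probe sets passed and 6 of the 17 had an unadjusted p under 0.05 against 19.3% of all. It read 7.01 to 7.24 in controls (median 7.08) and 6.60 to 6.94 after anti-FGFR1 (median 6.81). All 6 anti-FGFR1 mice lay below all controls, a separation seen in 3.90% of all probe sets. It fell by 0.31 ± 0.07 (log2, SE; limma adjusted p = 0.0119 over all probe sets), and its 95% interval, -0.46 to -0.17, did not overlap those of the 3 bright Mgll probe sets. This probe set is dim: 44.5% of probe sets had a mean as low, against 98.7% to 99.6% for the 3 others, and the probe table assigns it to the same complementary DNA record as 1 of them. Which Mgll transcripts it detects was not tested. Its call was kept without each array in turn (-0.35 to -0.28), and was lost with the mean of endothelial markers as a covariate, at a larger value with a larger error (-0.49 ± 0.12, limma adjusted p = 0.105).

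**Figure D2:**
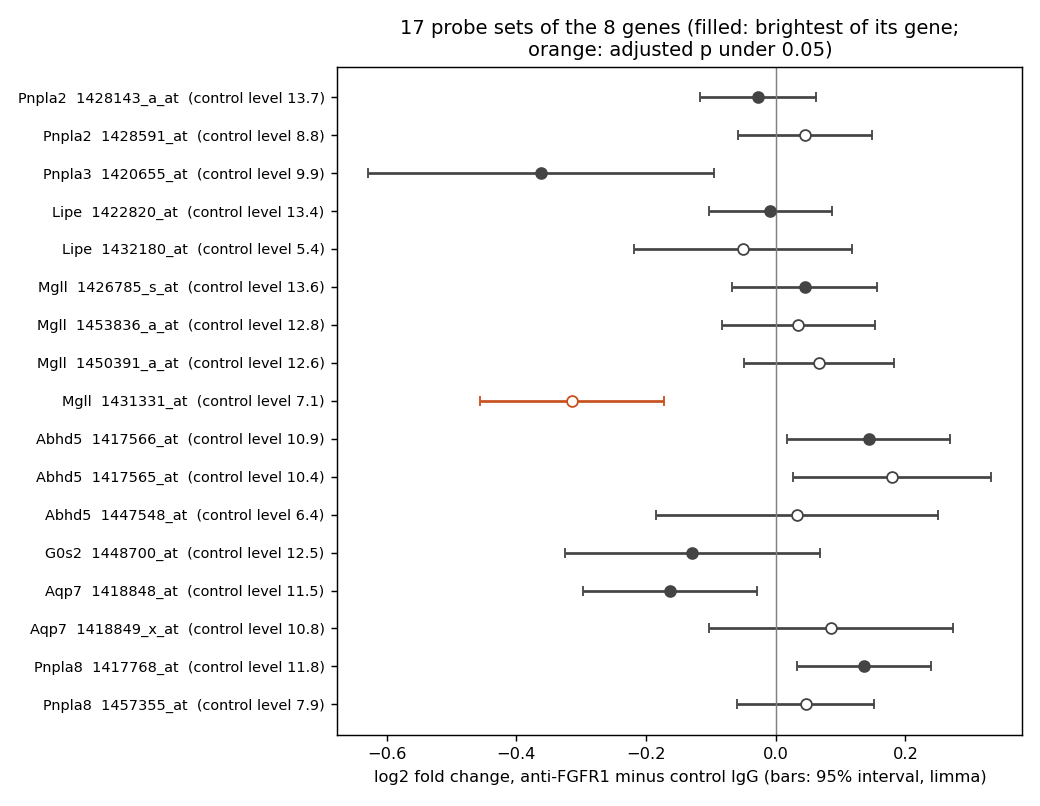
Log2 fold change, anti-FGFR1 minus control IgG, of all 17 probe sets of the 8 genes with 95% intervals from the fit over all probe sets. Filled points mark the brightest probe set of a gene, and the dim Mgll probe set at -0.31 is the single one past the threshold.

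Pnpla3, also called adiponutrin, is a lipid droplet relative of Pnpla2 whose transcript rises with feeding and insulin. It had the largest difference of the 8 genes, and 2.88% of all genes differed as much. Controls ranged from 9.56 to 10.23 (median 10.03) and anti-FGFR1 mice from 9.12 to 9.80 (median 9.66). In controls 4 mice lay at 10.01 or above, higher than every anti-FGFR1 mouse, and replicates 5 and 6 lay at 9.56 and 9.65. The means were 9.94 ± 0.27 and 9.58 ± 0.24 (SD, n = 6 per group), a log2 fold change of -0.36 ± 0.13 or 0.778 times the control level (limma unadjusted p = 0.0128, adjusted p = 0.102). Its 95% interval, from 0.644 to 0.940 times, was wide because 96.7% of genes had a pooled SD no larger than its own. Leaving out control replicate 5, Pnpla3 passed, at -0.44 ± 0.12 (limma adjusted p = 0.0428), and without anti-FGFR1 replicate 4 it stood at -0.27 ± 0.11 (limma adjusted p = 0.183). It stood at -0.53 ± 0.15, short of the threshold, when the 3' to 5' ratio described below was a covariate (limma adjusted p = 0.0744).

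Pnpla8 is a phospholipase of the same patatin family, found in mitochondria and peroxisomes, that acts on membrane phospholipids. Its main probe set ranged from 11.73 to 11.83 in controls (median 11.80) and from 11.80 to 12.001 after anti-FGFR1 (median 11.96). Of the anti-FGFR1 mice, 5 lay above all controls, and replicate 2, at 11.80, did not. The log2 fold change was 0.14 ± 0.05, 1.10 times the control level, with the smallest p of the 8 genes (limma unadjusted p = 0.00929, adjusted p = 0.0845). Its call depended on the setting: it passed after a second quantile normalization (0.16, limma adjusted p = 0.0326), with dim genes left out (0.0472), with a variance prior that follows intensity (0.0428) and without anti-FGFR1 replicate 2 (0.16, limma adjusted p = 0.0461). Over all 23 alternative settings it ran from 0.09 to 0.16, with limma adjusted p from 0.0326 to 0.582, and in 19 it stayed uncalled. Its dimmer probe set gave 0.05 ± 0.05.

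Aqp7 is the channel through which glycerol leaves fat cells, and it is also present in capillaries of fat tissue. Its main probe set ranged from 11.34 to 11.56 in controls (median 11.46) and from 11.11 to 11.44 after anti-FGFR1 (median 11.29). Of the anti-FGFR1 mice, 4 lay below all controls and 2 within their range. The log2 fold change was -0.16 ± 0.06 (limma unadjusted p = 0.0182, adjusted p = 0.126). The second Aqp7 probe set went the other way, at 0.09 ± 0.09 (limma adjusted p = 0.658 over all probe sets), with anti-FGFR1 replicate 6 at 10.46 and the other 5 mice of that group between 10.89 and 11.08. This second set carries the suffix _x_at, by which the manufacturer marks probe sets that may also bind other transcripts. The mean of both probe sets gave -0.04 ± 0.07 (limma adjusted p = 0.790).

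**Figure D3:**
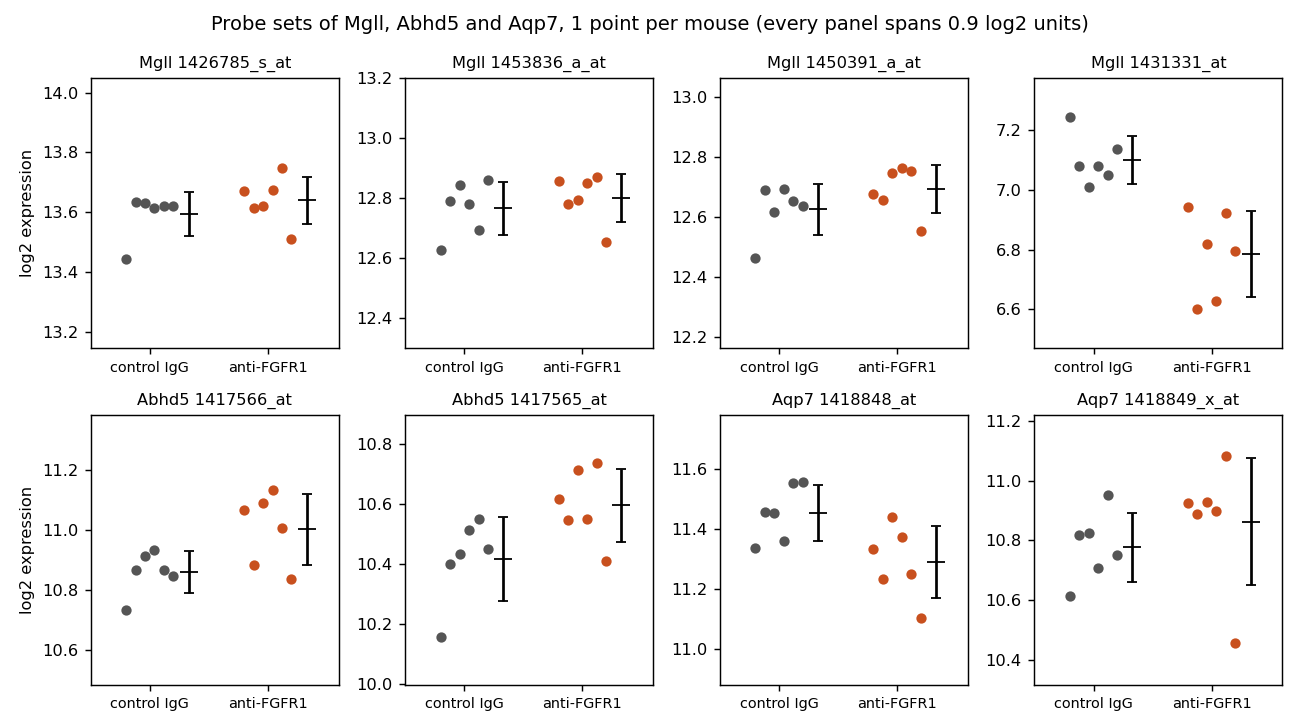
Log2 expression of the 4 Mgll probe sets, the 2 bright Abhd5 probe sets and the 2 Aqp7 probe sets, 1 point per mouse with the mean and SD of each group, every panel spanning the same range. The dim Mgll probe set separates the groups while the 3 bright ones do not, and the 2 Aqp7 probe sets differ in sign.

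The tissue and its other cells were checked with markers. Brown adipocyte markers averaged 11.87 to 12.37 in controls and 12.24 to 12.43 after anti-FGFR1, and 2 of the 8 rose, Elovl3 by 0.76 ± 0.19 and Cox7a1 by 0.16 ± 0.05 (limma adjusted p = 0.0254 and 0.0423). The mean of the 6 liver markers stayed low at 6.62 to 6.95, beside array medians of 7.19 to 7.22. Of these markers, Ttr (8.45 in controls and 8.52 after anti-FGFR1) and Apoa1 (7.52 and 7.49) lay above those medians, and the others did not. The mean of 10 endothelial markers did not overlap between the groups, at 9.70 to 9.94 in controls and 9.42 to 9.63 after anti-FGFR1, and 6 of the 10 fell. The mean of 12 macrophage markers was 10.004 to 10.70 and 10.27 to 10.68, and 2 of the 12 rose. The 10 skeletal muscle markers averaged 9.38 to 11.60 and 6.52 to 11.41, with 0 called by limma and 0 at an unadjusted p under 0.05. The 3' to 5' ratio of the Actb and Gapdh control probe sets, a sign of RNA integrity, was 0.139 to 0.221 in controls and 0.161 to 0.232 after anti-FGFR1 on the log2 scale. Its medians were 0.151 and 0.213, and apart from control replicate 1 every control lay at 0.163 or below, under 5 of the 6 anti-FGFR1 arrays. This ratio averages 2 transcripts that differed. Actb alone was 0.282 to 0.409 in controls and 0.335 to 0.472 after anti-FGFR1 (medians 0.335 and 0.415). Gapdh alone was -0.062 to 0.032 and -0.035 to 0.031, so its groups overlapped. Whether the shift of the averaged ratio has a part in the differences between the groups was not tested beyond the values with that ratio as a covariate. In whole tissue, fewer cells of a type and less RNA per cell cannot be told apart.

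These measures moved some of the values above. With the endothelial mean as a covariate Aqp7 stood at -0.01 ± 0.11 (limma adjusted p = 0.984), Pnpla3 at -0.62 ± 0.24, Mgll at 0.17 ± 0.09 and Abhd5 at 0.21 ± 0.11, and 0 of the 8 genes passed by limma. That mean itself separates the groups, so the standard errors with it were larger throughout. By limma 0 of the 8 passed as well when the covariate was the muscle mean, the macrophage mean or the 3' to 5' ratio. Of all 18193 genes, 131 passed with the endothelial mean and 688 with the 3' to 5' ratio. With the muscle mean 1313 did, and with the macrophage mean 2100.

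The 8 genes did not vary together as a block from mouse to mouse. After each group's mean was subtracted, the 28 pairs had Pearson correlations over the 12 arrays between -0.47 and 0.70, with a median of 0.15. The highest were those of Abhd5 with Mgll (0.70), Pnpla8 (0.69) and Aqp7 (0.68), and 3.11% to 3.55% of all genes correlated as highly with Abhd5. These values depend on a pair of arrays. Without anti-FGFR1 replicate 6 and control replicate 1, the arrays farthest from the median in Abhd5, the correlation with Mgll dropped to 0.18 and that with Aqp7 to 0.34, whereas that with Pnpla8 was 0.74. Abhd5 and Pnpla2, the activator and its lipase, had 0.56, and 0.48 without those arrays. On all arrays, 8.73% of all genes correlated as highly with Abhd5 as Pnpla2 did. After a second quantile normalization Abhd5 had its highest correlation with Pnpla2 (0.57), followed by Pnpla8 (0.54), Aqp7 (0.49) and Mgll (0.41). Pnpla3 and Aqp7 had the lowest correlation, at -0.47, and Pnpla3 and G0s2, both genes induced by insulin, had 0.45. Of all genes, 8.42% correlated as highly with Pnpla3 as G0s2 did. These are descriptions over the same 12 arrays, which share their normalization.

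**Figure D4:**
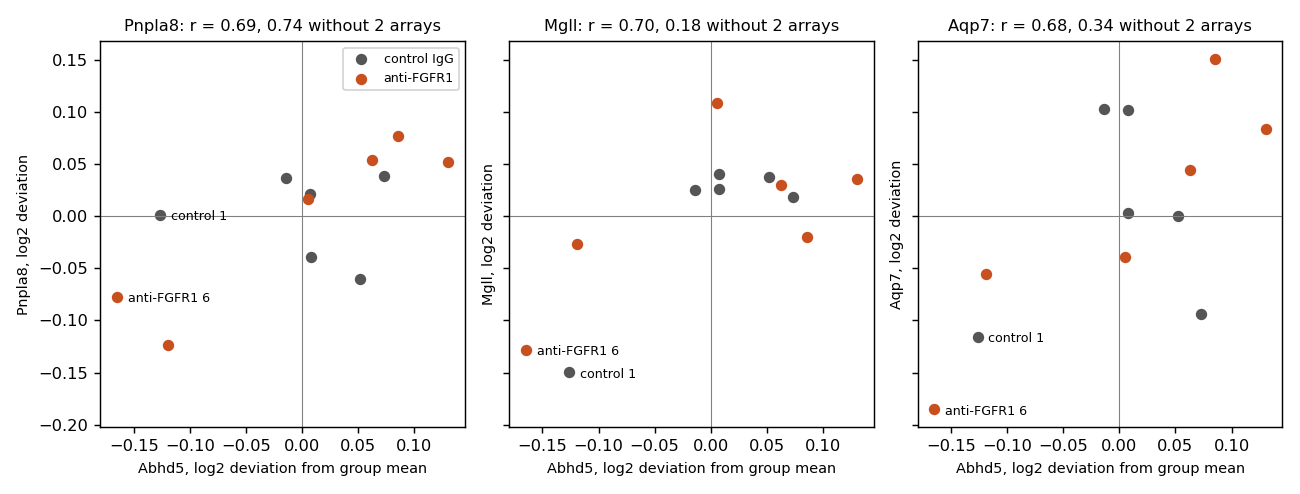
Deviation of each mouse from its group mean, in log2 units, for Abhd5 on the horizontal axis against Pnpla8, Mgll and Aqp7, with 6 control IgG and 6 anti-FGFR1 mice. The relation of Abhd5 with Pnpla8 is as high without control replicate 1 and anti-FGFR1 replicate 6, and that with Mgll rests on these 2 arrays.

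Because Abhd5 and Pnpla8 both stood higher in most anti-FGFR1 mice, and correlated at 0.54 or more in each of these settings, the sequences before their start sites are shown. They come from RefSeq on mouse build GRCm38.p6, at chr9:122351366-122351615 for Abhd5 and chr12:44268904-44269131 for Pnpla8, both on the plus strand and read 5' to 3'. For Pnpla8 the last 22 bases of the 250 searched lie inside the annotated gene and are not printed. Capitals mark TGACG or its reverse complement CGTCA, the core of the cAMP response element.
Abhd5: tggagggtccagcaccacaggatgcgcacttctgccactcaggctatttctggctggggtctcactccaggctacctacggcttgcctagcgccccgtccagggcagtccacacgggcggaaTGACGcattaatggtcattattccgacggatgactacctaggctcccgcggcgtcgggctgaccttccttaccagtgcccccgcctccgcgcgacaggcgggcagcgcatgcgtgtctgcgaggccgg
Pnpla8: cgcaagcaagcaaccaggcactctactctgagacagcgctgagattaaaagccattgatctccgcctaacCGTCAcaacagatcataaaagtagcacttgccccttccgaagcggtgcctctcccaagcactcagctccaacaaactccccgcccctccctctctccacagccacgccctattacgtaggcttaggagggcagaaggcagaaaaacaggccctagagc

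The 250 bases before each start site were searched on both strands, which gave 11 windows for the 8 genes, since 3 of them have 2 start sites. TGACG occurred in 4 of the 11 windows, those of Pnpla3, Abhd5, G0s2 and Pnpla8, and in 17.8% of 32851 such windows over all genes. In Abhd5 it begins 128 bases before the start. In Pnpla8 the reverse complement begins 180 and 19 bases before the start, the second of these in the 22 bases not printed. In Pnpla3, whose fold change was below 0, matches on both strands overlap and begin 46 and 43 bases before the start. Together they form TGACGTCA, which reads the same on both strands, and no other window of the 11 had such an overlap. GGGCGG, the box bound by Sp1, occurred in 7 of the 11 windows and in 32.7% of all windows. AGGTCA, the half-site of nuclear receptors such as PPARγ, occurred in 3 of the 11, 1 of Abhd5 and 2 of Aqp7, and in 14.0% of all windows. The 2 Aqp7 windows overlap and 1 match lies in both, so these are not separate occurrences, and 2 of the 8 genes had AGGTCA. A match is a description of the letters and shows no binding.

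The 2 genes outside the set with the highest correlation over the 12 arrays were noted for each of the 8. For Abhd5 they were Asns, asparagine synthetase (0.97, and 0.95 without the 2 arrays farthest from the median), and Ghitm, a mitochondrial inner membrane protein (0.95 and 0.93). For Aqp7 they were Jam2, a junctional adhesion molecule (0.93 and 0.86), and Commd6 (0.93 and 0.91). G0s2 was closest to Kbtbd11 (0.95 and 0.87) and 5033430I15Rik (0.93 and 0.87). For Pnpla8 they were the transcription factor Zbtb20 (0.90 and 0.76) and 4921536K21Rik (0.88 and 0.82), and for Lipe Zfp516 (0.92 and 0.79), a zinc finger protein known to promote Ucp1 expression, and Rnf216 (0.90 and 0.75). Pnpla2 was closest to Med11 (0.93 and 0.62) and Gsdmcl1 (0.92 and 0.59), and Mgll to Lrif1 (0.93 and 0.62) and the lysosomal protein Lamp2 (0.92 and 0.59), so these 4 values rest in part on 2 arrays. For Pnpla3 they were Rbfa (0.89 and 0.72) and D130051D11Rik (0.88 and 0.86). By limma 0 of these 16 genes were called between the groups, where 8.03% of all genes were. Of the 16, 4 had an unadjusted p under 0.05, where 22.4% of all genes did. Jam2 at -0.17 ± 0.06 and Zbtb20 at 0.21 ± 0.06 had the smallest limma adjusted p-values (0.0795 and 0.0565).

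Around the lipases, 55 genes of 5 lists were measured: 5 rose and 2 fell, beside 2.94% of all genes that rose and 5.09% that fell. The other 48 did not pass. Some listed genes, Adrb3, Plin1 and Gk among them, were not analysed here. The genes named follow a rule that takes those past the threshold and a few others whatever their values.

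Among 14 genes of the receptors and cAMP signalling that switch lipolysis on or off, 1 rose and 1 fell, with a median log2 fold change of 0.05. Acvr1c encodes ALK7, a receptor of fat cells whose signalling is known to suppress lipolysis and lipase expression. It ranged from 9.47 to 10.13 in controls (median 9.86) and from 10.06 to 10.80 after anti-FGFR1 (median 10.53), with 5 of 6 mice above all controls. It rose by 0.68 ± 0.12 (limma adjusted p = 0.00265), a second probe set rose by 0.65 ± 0.10, and its dimmest gave 0.16 ± 0.09. Adcy6, an adenylyl cyclase that makes cAMP, ranged from 11.04 to 11.23 in controls and from 10.68 to 10.93 after anti-FGFR1. Every anti-FGFR1 mouse lay below all controls, and Adcy6 fell by 0.31 ± 0.05 (log2, SE; limma adjusted p = 0.00228). With the endothelial mean as a covariate Adcy6 was at -0.12 ± 0.08 and lost its call (limma adjusted p = 0.595), while Acvr1c lost its call at the same value with a larger error (0.68 ± 0.23, limma adjusted p = 0.213). Pde3b, the phosphodiesterase through which insulin lowers cAMP, stood at 0.07 ± 0.05, short of the threshold (limma adjusted p = 0.365).

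Of 11 lipid droplet proteins, 1 rose and 1 fell, with a median of -0.00048. Bscl2, which encodes seipin, a protein of droplet formation, ranged from 12.22 to 12.41 in controls and from 12.45 to 12.65 after anti-FGFR1. A second bright probe set gave 0.17 ± 0.05, short of the threshold (limma adjusted p = 0.0918 over all probe sets). On the main probe set all 6 anti-FGFR1 mice lay above all controls, and Bscl2 rose by 0.21 ± 0.05 (limma adjusted p = 0.0183). It lost its call with the endothelial mean (0.28, limma adjusted p = 0.216) or macrophage mean (0.19, limma adjusted p = 0.052) among the covariates and without the array of each group lowest in muscle markers (0.19, limma adjusted p = 0.0765). Plin4, a droplet coat protein, ranged from 12.92 to 13.21 in controls and from 12.61 to 12.96 after anti-FGFR1, 5 of 6 of these below all controls. It fell by 0.28 ± 0.07 (log2, SE; limma adjusted p = 0.0177). Its call was lost at -0.33 ± 0.09 when the 3' to 5' ratio was a covariate (limma adjusted p = 0.0509) and at -0.19 ± 0.13 when the endothelial mean was (limma adjusted p = 0.570). Hilpda, a small inhibitor of Pnpla2, stood at -0.40 ± 0.13, short of the threshold (limma adjusted p = 0.0776). It passed when the macrophage mean was a covariate (-0.57 ± 0.14, limma adjusted p = 0.0179) and without control replicate 2 (-0.48, limma adjusted p = 0.0333). Cidec, which fuses droplets, differed by 0.08 ± 0.08.

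**Figure D5:**
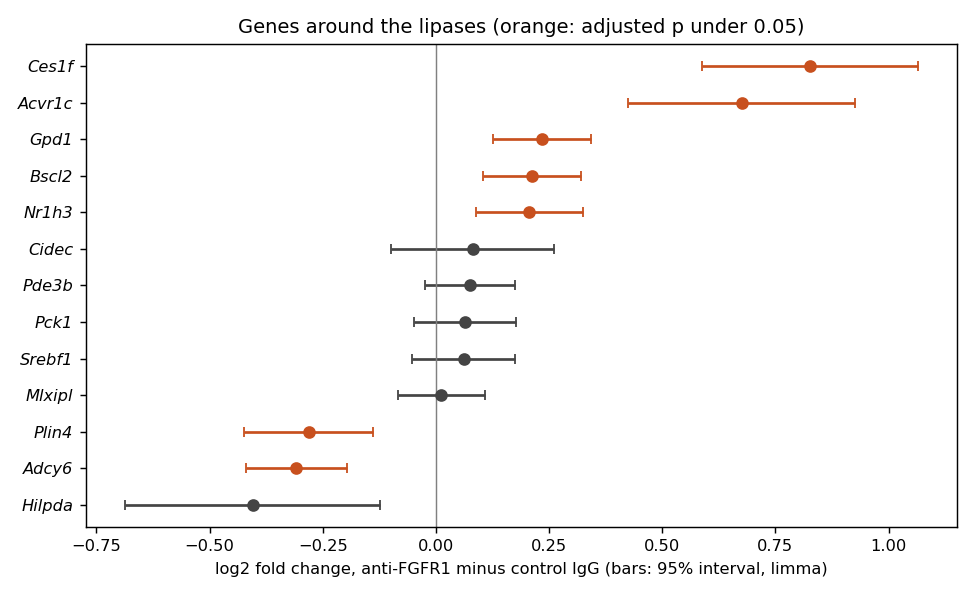
Log2 fold change, anti-FGFR1 minus control IgG, with 95% intervals from limma, for the 13 genes named around the lipases. The 7 coloured genes passed the threshold, 5 of them above 0 and 2 below.

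Among 12 other intracellular lipid hydrolases, 1 rose and the other 11 did not pass, with a median of 0.04. Ces1f, a carboxylesterase, had the largest difference of all the genes named here. It ranged from 7.48 to 8.10 in controls (median 7.67) and from 8.29 to 8.88 after anti-FGFR1 (median 8.56), with all 6 anti-FGFR1 mice above all controls. The rise was 0.83 ± 0.11, 1.77 times the control level (limma adjusted p = 0.000465). Its probe set has the suffix _s_at, which marks probes shared by several transcripts, and carboxylesterases are close copies of each other, so the reading may hold more than 1 of them. With the endothelial mean as a covariate it was at 0.75 ± 0.22 (limma adjusted p = 0.139). The related Ces1d, a triglyceride hydrolase of fat cells, differed by 0.04 ± 0.06 (limma adjusted p = 0.712) and was named after its value was seen.

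Of 7 genes that handle glycerol and fatty acids after lipolysis, Gpd1 rose, and the other 6 did not pass. Gpd1 makes glycerol 3-phosphate, the backbone onto which fatty acids are joined again. It ranged from 13.86 to 14.05 in controls and from 14.09 to 14.33 after anti-FGFR1, a rise of 0.24 ± 0.05 (limma adjusted p = 0.0102) with no overlap between the groups. With the endothelial mean as a covariate it was at 0.06 ± 0.08 (limma adjusted p = 0.826), and with the mean of its 4 probe sets at 0.15 ± 0.05 (limma adjusted p = 0.0658). When the 3' to 5' ratio was a covariate, Gpd1 missed the threshold at 0.23 ± 0.07 (limma adjusted p = 0.0853). Pck1, an enzyme of the route that makes glycerol 3-phosphate from small precursors in fat, differed by 0.06 ± 0.05.

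Of 11 transcription factors known to act on lipase genes, Nr1h3 rose and the other 10 did not pass, with a median of -0.0054. Nr1h3 encodes the sterol sensor LXR alpha. It went from a median of 9.26 to 9.53, with 4 of 6 anti-FGFR1 mice above all controls, a rise of 0.21 ± 0.05 (limma adjusted p = 0.0323). Leaving out 1 array at a time ended the call for 8 of the 12 (0.19 to 0.20, limma adjusted p up to 0.0764). So did a covariate for muscle (0.19, limma adjusted p = 0.0578), macrophages (0.19, limma adjusted p = 0.0779) or endothelium (0.22, limma adjusted p = 0.410). Srebf1 and Mlxipl, the factors that drive Pnpla3 in the fed state, stood at 0.06 ± 0.05 and 0.01 ± 0.04, short of the threshold (limma adjusted p = 0.543 and 0.910).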

How the data were processed

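Levels were taken from the deposited table of log2 values, 1 column per mouse, over 45101 probe sets. The authors used RMA and limma, versions not given, per the submitters' processing notes. RMA corrects background, normalizes arrays together and summarises probes on the log2 scale, which can compress differences of dim probe sets. Whether differences of the brightest probe sets are compressed as well was not tested.

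Gene names came from the platform's probe table, with symbols updated by Entrez identifier to the GRCm38.p6 gene table (34741 of 34945 probe sets with 1 gene matched). The 64 control probe sets, and any set with several genes (932) or without a gene, did not enter the gene fit. The brightest probe set stood for each gene. The comparison used lmFit and eBayes of limma 3.58.1 (R 4.3.3), two-sided with no covariate, over 18193 genes and, for single probe sets, over 45037. The gene test was checked on simulated data in which each gene varied on its own. That check does not cover shifts of an array that many genes share. Arrays give no counts, and their number limits the precision. No 2 arrays shared more than 0.0665% of values.

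Named genes are the 8 with all their probe sets, up to 4 called genes of each list around them, 9 more fixed by name and, for each of the 8, the 2 most correlated genes. Members and lists were chosen with earlier results of these data known. Alternatives were another quantile normalization, median centring, the replicate block, probe set means, a filter on dim genes, an intensity trend, 4 covariates and leaving out arrays.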

Additional observations from a re-analysis of the deposited data

Results flagged for a closer look

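An array counted as outlying where its gap to the nearest other array of its group, divided by the group's range, exceeded Dixon's critical value for 6 samples. Chance alone flags about 1 in 20 groups, and 7 of the 74 groups checked met the rule. Control IgG replicate 1 was low on 2 Mgll probe sets: 13.45 on the brightest, beside 13.61 to 13.64 in the other controls, and 12.46 on the third brightest, beside 12.62 to 12.69. The same array had the highest 3' to 5' ratio of its group, 0.221 beside 0.139 to 0.163. Control IgG replicate 6 was low in Pnpla2 (13.62, beside 13.69 to 13.72). Anti-FGFR1 replicate 6 was low on the second Aqp7 probe set (10.46, beside 10.89 to 11.08). Anti-FGFR1 replicate 2 was low in Srebf1 (11.34, beside 11.48 to 11.55). Anti-FGFR1 replicate 5 was low in the mean of the skeletal muscle markers (6.52, beside 10.20 to 11.41).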

How the results depend on the processing

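As deposited 1461 genes were called, 535 higher and 926 lower. Without each array in turn the count was 1043 to 1698, with 0 to 1 of the 8 lipase genes called. As deposited, the arrays still differed in their upper quartiles, at 8.64 to 8.74 in controls (median 8.71) and 8.64 to 8.69 after anti-FGFR1 (median 8.67). A second quantile normalization gave 732 higher and 760 lower and called 2 of the 8 (Abhd5 and Pnpla8). Leaving out dim genes and the intensity trend each called 1 (Pnpla8). The 3' to 5' covariate gave 688 calls (281 higher, 407 lower) and the endothelial covariate 131 (100 higher, 31 lower), each with 0 of the 8. Lipe turned to 0.0115 with the first and 0.0574 with the second, and ran from -0.0285 to 0.0050 over the left-out arrays. The mean of probe sets turned Mgll to -0.0418 and Pnpla2 to 0.0091. Mlxipl turned to -0.00057 with the 3' to 5' covariate and ran from -0.0087 to 0.0331 over the left-out arrays. The cause of these shifts was not tested. Same-numbered mice of the 2 groups did not deviate together (correlations from -0.17 to 0.25, and 2 of 6 controls closest to their own number), so the numbers were not taken as pairs. With the replicate block 1337 genes and 0 of the 8 were called, and Hilpda passed (limma adjusted p = 0.041). The alternative without the array of each group lowest in muscle markers was chosen after seeing the data. Fold changes of dim probe sets are the least certain. A filter on dim probe sets leaves out the dim Mgll probe set.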
